A study of Mus musculus with 32 samples.

Results

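The DNA methylation signal of mouse brain was set against that of mouse kidney. It was measured by MeDIP-seq, the sequencing of DNA fragments that an antibody to 5-methylcytosine (5mC) has pulled down. The comparison takes 4 of the 8 columns of 1 deposited table: frozen brain and FFPE brain, against frozen kidney and FFPE kidney. FFPE stands for formalin-fixed, paraffin-embedded tissue, and the frozen tissue was flash-frozen. The other 4 columns hold heart and liver in both forms. The labels list 2 samples of each organ and form, but the table has 1 column for each, called a library here. The column names give no antibody, and the values were taken as 5mC. The labels name no strain, age, sex, genotype or brain region, and no separate animals for the replicates. Of 27179 genes, the 25982 that reached 1 CPM (reads scaled to library size) in 2 or more of the 8 libraries were tested.

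In mammals, methyl groups are found mostly on cytosines followed by guanine (CpG). Dense clusters of CpG at gene starts, called CpG islands, are mostly unmethylated, while gene bodies and the DNA between genes are mostly methylated. Genes of development, such as the Hox genes, lie in CpG-rich stretches that can gain methylation in some tissues and not in others. A value here is the number of precipitated reads counted on a gene, scaled to the library, and it rises with the number of methylated CpG as well as with their methylation. The values were not set against unselected DNA, and reads on the promoter, exons and introns of a gene cannot be told apart.

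The 8 libraries held 2164158 to 3699218 reads on genes. The frozen kidney library stood apart, where 2999 genes had no read, and the other 7 libraries left 880 to 2380 genes empty. Across the 25982 tested genes, log2 CPM correlated at r = 0.903 between frozen and FFPE brain and at r = 0.862 between frozen and FFPE kidney. FFPE kidney was nearer to FFPE heart (r = 0.915) than to frozen kidney. It was also nearer to FFPE brain (r = 0.885), frozen heart (r = 0.897), frozen liver (r = 0.906) and FFPE liver (r = 0.91). Only frozen brain (r = 0.832) was further from FFPE kidney than frozen kidney was. These correlations share the base composition and length of the genes and are given as descriptions.

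At an adjusted p of at most 0.05 (limma, referred to as called), 1665 genes were higher in brain (6.41% of those tested) and 2506 were lower in brain (9.65%). The called genes that were higher in brain had a median log2 difference of 1.89, and those lower in brain a median of -0.91. Large differences were more frequent upward: 774 higher genes and 86 lower genes were past 4-fold. The 2 sets differ in signal, with a median mean log2 CPM of 3.63 for genes called higher and 6.20 for those called lower. The fit kept preservation as a term and used all 8 libraries. With 1 library per organ and form, the residual of the fit reflects disagreement between frozen and FFPE tissue. It gives no separate measure of variation between animals, which the labels do not identify.

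The frozen and FFPE comparisons gave the same sign for 70.4% of all tested genes, and their differences correlated at r = 0.414 across genes. The median difference over all tested genes was 0.11 in frozen tissue and 0.02 in FFPE tissue, on the log2 scale. Frozen tissue gave the wider spread, with an SD over genes of 1.64 against 1.09 in FFPE tissue. Both brain libraries lay above both kidney libraries for 30.6% of tested genes and below both for 26.1%. They lay above both for 99.0% of the genes called higher, and below both for 98.8% of those called lower. Lack of overlap between the 2 organs therefore adds little to a call. Brain also lay above all 6 other libraries for 75.4% of the genes called higher, and below all 6 for 63.0% of the genes called lower. Kidney lay above all 6 others for 12.1% of the genes called lower. Calls depended on the fit's trend of variance on mean signal, on single libraries and on scaling. Without the variance trend 0 genes were called higher and 0 lower. Without the frozen brain library 0.189% of genes were called higher and 1.67% lower, without FFPE brain 1.65% and 5.6%, and without frozen kidney 3.82% and 5.67%. With quantile normalization 6.95% were called higher and 7.04% lower, and with total-read scaling 8.78% and 5.13%.

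**Figure D1:**
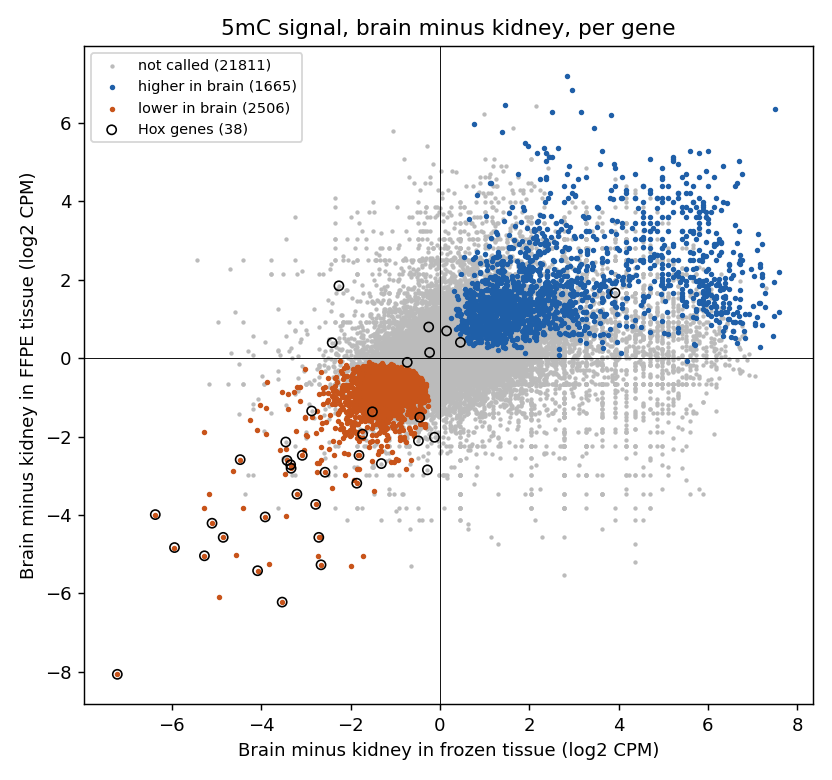
Each point is 1 of 25982 tested genes, with its brain minus kidney difference in frozen tissue on the horizontal axis and in FFPE tissue on the vertical axis, both in log2 CPM. Blue points are the 1665 genes called higher in brain, orange points the 2506 called lower, grey points the rest, and black circles the 38 Hox genes, most of which lie at the lower left.

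The direction moved with how much signal a gene carried. The tested genes were divided into 4 bins of equal size by mean log2 CPM. In the bin with the least signal the median log2 difference was 1.20, and in the next bins it was 0.40, -0.05 and -0.36. Of the genes called lower in brain, 74.4% were in the bin with the most signal. Of those called higher, 29.3% were in the bin with the least and 11.5% in the bin with the most. Signal is not scaled to gene length here. The part of signal, and of the frozen kidney library, in any gene's difference was not tested. Each gene list is therefore set beside the rate in its members' own signal bins, written as genes of like signal.

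Differences were ranked among called genes with at least the median signal whose organs did not overlap, excluding predicted models and pseudogenes. The largest rise in brain was on Cyp1b1, a cytochrome P450 that oxidises oestrogens and polycyclic hydrocarbons. Cyp1b1 (chr17:79706940-79715061) had 91.3 and 88.4 CPM in frozen and FFPE brain, against 20.9 and 8.98 CPM in frozen and FFPE kidney. Both brain libraries were thus far above both kidney libraries, and the heart and liver libraries, at 6.72 to 27.0 CPM, lay near kidney. The log2 difference was 2.69 ± 0.46 (SE, n = 2 libraries per organ, limma adjusted p = 0.00198).

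Nr2f2, a nuclear receptor of vascular and interneuron development, had 66.7 and 57.0 CPM in frozen and FFPE brain, against 16.7 and 7.09 CPM in frozen and FFPE kidney. Ahnak, a very large scaffold protein, had 128 and 85.7 CPM in frozen and FFPE brain, against 23.7 and 28.8 CPM in frozen and FFPE kidney. For both genes the organs did not overlap, as the ranking required. The log2 differences were 2.48 ± 0.35 for Nr2f2 and 2.00 ± 0.25 for Ahnak (SE, limma adjusted p = 0.000711 and 0.000392). Drd1, the D1 dopamine receptor, had 59.2 and 49.9 CPM in frozen and FFPE brain, against 17.3 and 9.45 CPM in frozen and FFPE kidney (log2 difference 2.07 ± 0.32 SE, limma adjusted p = 0.001). Fzd4, a receptor for Wnt and norrin signals, and Nes, the intermediate filament of neural progenitors, each rose by 2.07 on the same scale. The other genes among the 12 largest rises were Ggta1, Sox1ot, Otud7a, Cp, Fam107b and Rassf10, at 2.07 to 2.56. Sox1ot overlaps Sox1, and without known strand their reads cannot be told apart.

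By the same ranking, the largest fall outside the Hox genes was on Fam171a2 (chr11:102436981-102447677), a membrane protein gene. It had 11.7 and 12.2 CPM in frozen and FFPE brain, against 118 and 82.2 CPM in frozen and FFPE kidney, a log2 difference of -3.02 ± 0.25 (SE, limma adjusted p = 4.76e-05). Heart and liver lay at 58.6 to 94.3 CPM, so that brain was the organ apart.

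Tbx2 and Tbx3, T-box repressors of organ patterning, fell together. Tbx2 had 8.34 and 8.36 CPM in frozen and FFPE brain, against 56.8 and 63.3 CPM in frozen and FFPE kidney. Tbx3 had 21.7 and 7.77 CPM in frozen and FFPE brain, against 117 and 78.0 CPM in frozen and FFPE kidney. The log2 differences were -2.82 ± 0.28 for Tbx2 and -2.86 ± 0.32 for Tbx3 (SE, limma adjusted p = 0.000115 and 0.00015). Of the 17 T-box genes tested, 3 were called higher in brain (17.6%) and these 2 lower (11.8%), where genes of like signal had 6.1% and 12.6%. Without the frozen brain library 0 were called higher and 2 lower.

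Nr1d1, a repressor of the circadian clock, had 10.0 and 24.8 CPM in frozen and FFPE brain, against 80.1 and 97.8 CPM in frozen and FFPE kidney. It overlaps Thra on the annotation, and its log2 difference was -2.48 ± 0.26 (SE, limma adjusted p = 0.000115). Hspb3, a small heat shock protein gene, had 7.92 and 6.57 CPM in frozen and FFPE brain, against 35.2 and 52.5 CPM in frozen and FFPE kidney. In neither gene did the organs overlap, as the ranking required. Also among the 12 largest falls were Hoxb3, Scarf2, Foxc1, Inha, Fignl2 and Pnmal2, between -3.53 and -2.32.

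The promoters of a gene that rose (Cyp1b1), of a gene that fell (Hspb3) and of 2 Hox genes described next (Hoxd4, Hoxa11) are printed to show how much methylatable sequence they hold. Each is the 250 bases before the gene's start in RefSeq (GRCm38.p6), 5′ to 3′ on the gene's strand, with each CG in capitals. Their places are chr17:79715062-79715311 (minus strand), chr13:113663677-113663926 (minus strand), chr2:74721728-74721977 (plus strand) and chr6:52245811-52246060 (minus strand).
Cyp1b1: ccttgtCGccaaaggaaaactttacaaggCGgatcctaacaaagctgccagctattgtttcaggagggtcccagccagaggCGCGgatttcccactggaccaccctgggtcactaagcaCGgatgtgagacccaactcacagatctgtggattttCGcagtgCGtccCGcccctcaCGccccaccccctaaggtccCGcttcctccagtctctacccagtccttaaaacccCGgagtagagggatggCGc
Hspb3: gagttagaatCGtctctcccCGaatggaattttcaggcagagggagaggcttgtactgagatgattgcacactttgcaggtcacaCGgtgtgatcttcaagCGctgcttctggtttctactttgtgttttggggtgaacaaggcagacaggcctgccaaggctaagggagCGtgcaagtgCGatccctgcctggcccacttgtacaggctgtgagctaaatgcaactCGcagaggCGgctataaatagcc
Hoxd4: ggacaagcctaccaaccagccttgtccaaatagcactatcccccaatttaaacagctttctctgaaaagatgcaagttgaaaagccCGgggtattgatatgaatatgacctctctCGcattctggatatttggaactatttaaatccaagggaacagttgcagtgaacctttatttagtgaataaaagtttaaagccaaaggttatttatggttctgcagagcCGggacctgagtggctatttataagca
Hoxa11: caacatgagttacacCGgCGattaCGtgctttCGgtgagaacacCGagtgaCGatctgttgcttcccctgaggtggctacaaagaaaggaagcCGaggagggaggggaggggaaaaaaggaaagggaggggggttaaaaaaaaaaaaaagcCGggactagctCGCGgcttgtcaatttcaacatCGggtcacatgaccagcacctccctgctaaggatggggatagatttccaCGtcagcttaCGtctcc

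The letters CG, which read the same on both strands, occur 12 times in the Cyp1b1 window, 8 times in that of Hspb3, 3 times in that of Hoxd4 and 13 times in that of Hoxa11. Of 27025 RefSeq promoters of this length, 33.8% hold at least as many as Cyp1b1, 43.4% as Hspb3, 70.4% as Hoxd4 and 31.8% as Hoxa11. Promoter CG content was not compared over all called genes, because the table holds promoters for only 70.7% of the genes called higher and 73.5% of those called lower, too few for the check.

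Hox genes, which encode the homeodomain factors that set position along the body axis and pattern the kidney and limbs, gave the most one-sided result among the lists. Of 38 tested, 21 were called lower in brain (55.3%) and 0 higher, where 9.65% of all genes and 1.18% of genes of like signal were called lower. Their median log2 difference was -2.76, while genes of like signal had a median of 0.84. Frozen tissue (-2.69) and FFPE tissue (-2.65) gave nearly the same median. In all 21 called genes both kidney libraries lay above the other 6 libraries, so kidney was the organ apart.

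Hoxd3 (chr2:74711993-74748271) had 4.17 and 3.58 CPM in frozen and FFPE brain, against 168 and 122 CPM in frozen and FFPE kidney. Its neighbour Hoxd4 (chr2:74721978-74729160) had 0.834 and 2.09 CPM in frozen and FFPE brain, against 63.8 and 63.3 CPM in frozen and FFPE kidney. Brain was low and kidney high for both genes, in frozen and in FFPE tissue. The log2 differences were -5.15 ± 0.54 for Hoxd3 and -5.38 ± 0.54 for Hoxd4 (SE, both limma adjusted p = 0.000115). The 2 genes overlap, so part of their signal may be the same reads.

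Hoxa11 (chr6:52242105-52245810), which acts with its paralogs in early kidney development in mice, had 0 reads in both brain libraries, against 31.0 and 39.7 CPM in frozen and FFPE kidney. With a floor of 3 reads per library it was at least 33.1-fold lower in brain (limma adjusted p = 0.000858). Liver also had 0 reads, and heart had 1.75 and 2.38 CPM, so that no other organ came near kidney. Hoxb3, with 5.00 and 8.66 CPM in frozen and FFPE brain, against 116 and 52.9 CPM in frozen and FFPE kidney, differed by -3.53 ± 0.37 (SE, limma adjusted p = 0.000115). For Hoxb3, heart and liver were in between, at 28.1 to 44.3 CPM.

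The falls covered all 4 clusters: 6 of 11 tested genes in Hoxa (chromosome 6), 4 of 9 in Hoxb (chromosome 11), 4 of 9 in Hoxc (chromosome 15) and 7 of 9 in Hoxd (chromosome 2). They ran along the clusters, with 8 of 12 genes in paralog groups 1 to 4, 8 of 15 in groups 5 to 9 and 5 of 11 in groups 10 to 13. Some of these genes overlap on the annotation and may share reads. Hoxa3 spans Hoxa4, Hoxa5 and Hoxa6, and of these Hoxa3, Hoxa5 and Hoxa6 were called. Hoxb3 overlaps Hoxb4, and Hoxd11 overlaps Hoxd10. The counts per cluster, per paralog group and over all Hox genes are therefore not counts of independent genes. Neighbours did differ. Hoxb5 had 25 and 23 CPM in frozen and FFPE brain, against 29.4 and 20.8 CPM in frozen and FFPE kidney, and was not called. Hoxa9, at 3.75 and 5.97 CPM in frozen and FFPE brain, against 4.55 and 3.31 CPM in frozen and FFPE kidney, was not called either. The median of the list stayed at -2.76 with Hoxa11 and Hoxa13, each at 0 reads in both libraries of 1 organ, set to their bounds. The number of Hox genes called lower was 12 to 24 under the alternatives tried, except without the variance trend, where no gene in the table was called. It was 12 without FFPE brain and 13 without frozen brain.

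**Figure D2:**
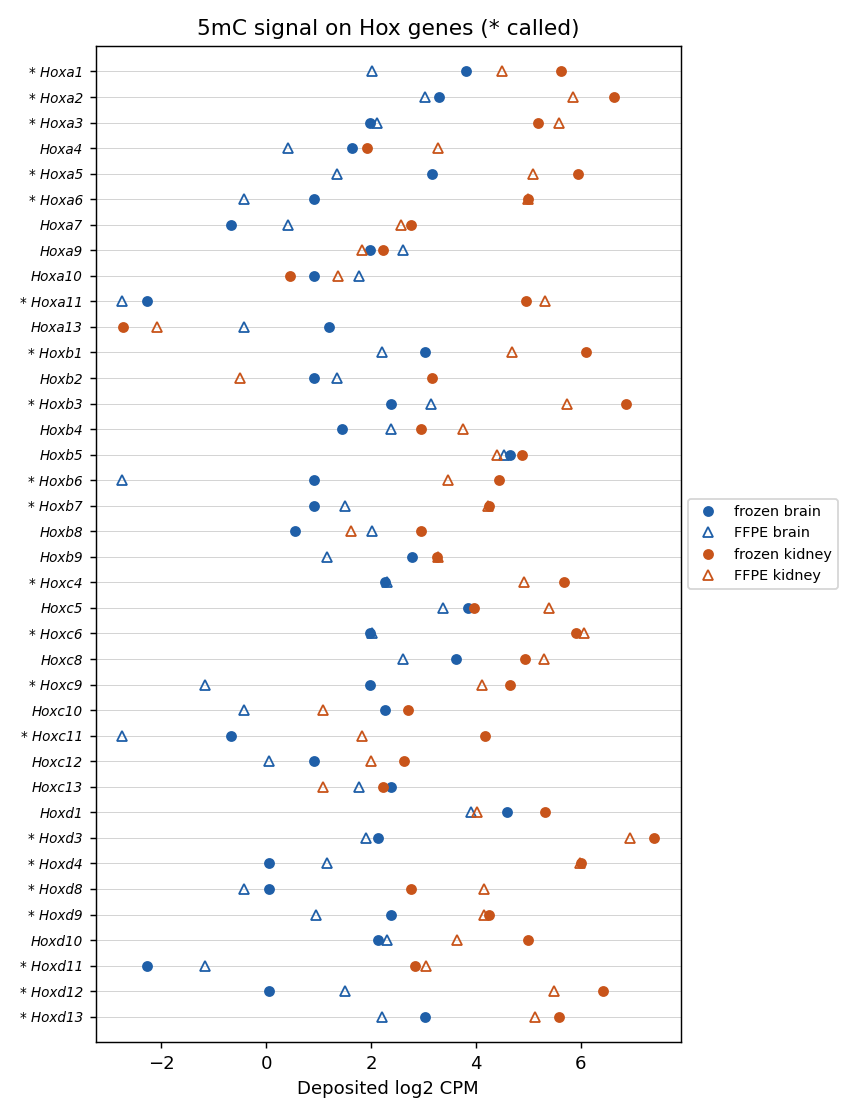
Deposited log2 CPM of the 38 tested Hox genes, in cluster order, in frozen (filled circles) and FFPE (open triangles) libraries of brain (blue) and kidney (orange), with an asterisk on the 21 genes called lower in brain. Orange points lie to the right of blue points in each asterisked row.

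Transcription factors of nervous system development showed the opposite direction for many members. Of 76 tested, 16 were called higher in brain (21.1%) and 3 lower (3.95%), where 6.41% and 9.65% of all genes, and 7.29% and 4.23% of genes of like signal, were called. The median log2 difference was 1.36, or 1.26 with 5 genes at 0 reads in both libraries of 1 organ set to their bounds, while genes of like signal had 0.74. Brain lay above the other 6 libraries in all 16. Most members carried little signal, 56.6% of them in the bin with the least.

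Pou3f2, a POU factor of cortical neurons, had 81.3 and 64.8 CPM in frozen and FFPE brain, against 10.3 and 3.31 CPM in frozen and FFPE kidney. Lhx2, a LIM factor of forebrain patterning, had 34.6 and 38.2 CPM in frozen and FFPE brain, against 10.0 and 8.03 CPM in frozen and FFPE kidney. Zic4, a zinc finger gene of the cerebellum that overlaps Zic1 on the annotation, had 40.9 and 26.6 CPM in frozen and FFPE brain, against 5.16 and 0 CPM in frozen and FFPE kidney. In these 3 genes the organs did not overlap, and the log2 differences were 3.58 ± 0.54 for Pou3f2, 1.99 ± 0.43 for Lhx2 and 4.89 ± 0.97 for Zic4 (SE, limma adjusted p = 0.000986, 0.00698 and 0.00452). The Zic4 difference rests in part on the 0.5 read added in FFPE kidney. Others that rose were the progenitor factor Sox2, at 2.69, and the forebrain factors Six3 and Otx2, at 2.75 and 2.25. The 3 that fell were Bcl11a and Bcl11b, zinc finger factors of cortical projection neurons, and Lhx6, a factor of cortical interneurons. Bcl11b had 275 and 293 CPM in frozen and FFPE brain, against 674 and 466 CPM in frozen and FFPE kidney. Without the frozen brain library 1 member was called higher, and without the FFPE brain library 1. With quantile normalization 11 were.

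Factors of kidney development moved both ways. Of 46 tested, 5 were called higher in brain (10.9%) and 8 lower (17.4%), where genes of like signal had 6.0% and 10.8%. The 8 include Hoxa11, Hoxc11 and Hoxd11, which are also counted among the Hox genes. The lower rate therefore restates part of the Hox result, and the rate without the Hox members was not computed. The other members called lower were Foxc1, Foxi1, Lhx1, Osr2 and Pax2. Foxi1, among the 8, and Tfcp2l1, among the 5, are counted again among the distal nephron genes. Kidney lay above the other 6 libraries in 6 of the 8. Without frozen brain 0 were higher and 4 lower, and without FFPE brain 1 and 4.

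Pax2, a factor of the ureteric bud and nephron progenitors, had 26.3 and 17.0 CPM in frozen and FFPE brain, against 69.8 and 74.2 CPM in frozen and FFPE kidney. Osr2, a zinc finger factor of the odd-skipped family, had 1.67 and 0.597 CPM in frozen and FFPE brain, against 26.4 and 28.4 CPM in frozen and FFPE kidney. Foxc1, a forkhead factor of mesoderm, had 10.4 and 9.86 CPM in frozen and FFPE brain, against 67.1 and 47.7 CPM in frozen and FFPE kidney. The log2 differences of these non-overlapping values were -1.76 ± 0.33 for Pax2, -4.54 ± 0.85 for Osr2 and -2.46 ± 0.37 for Foxc1 (SE, limma adjusted p = 0.00313, 0.00325 and 0.000959). Lhx1, needed for kidney formation in mice, fell by 1.98. Tfcp2l1, a factor of the collecting duct, rose by 1.36 ± 0.27 (SE, limma adjusted p = 0.00493). Pax8, the relative of Pax2, rose by 0.98 ± 0.32 (SE, limma adjusted p = 0.0492), which is close to the threshold.

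**Figure D3:**
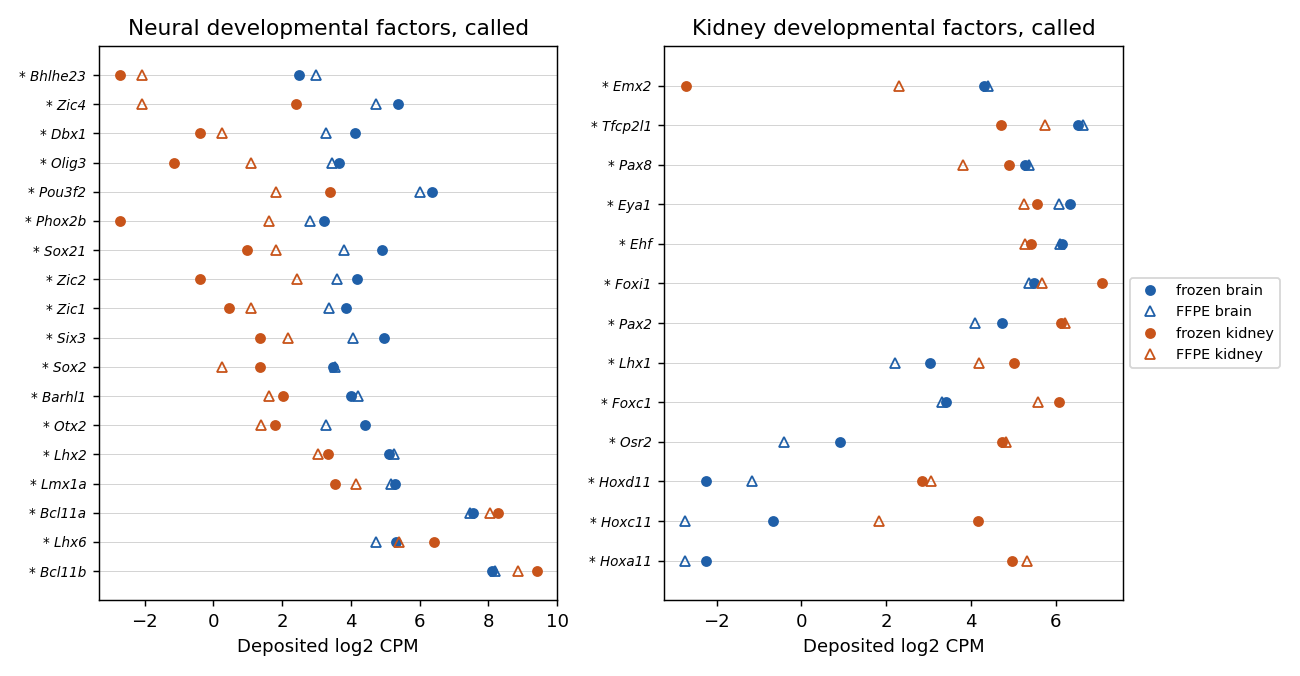
Deposited log2 CPM of 18 of the 19 called neural (left) and all 13 called kidney (right) developmental transcription factors, with brain in blue, kidney in orange, frozen libraries as circles and FFPE libraries as triangles. In the neural panel 15 genes have both brain points to the right, and in the kidney panel 8 genes have both kidney points to the right.

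Genes used by mature neurons were lower in brain more often than higher. Of 46 tested, 16 were called lower (34.8%) and 3 higher (6.52%), where genes of like signal had 16.7% and 5.14%. The median log2 difference was -0.58, and -0.04 for genes of like signal. Brain lay below the other 6 libraries in 15 of the 16. The cell type lists group genes by where their RNA is known to be abundant, and DNA methylation signal on them does not measure cell content.

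Tubb3, the neuronal tubulin, had 47.9 and 63.6 CPM in frozen and FFPE brain, against 126 and 155 CPM in frozen and FFPE kidney. Nlgn3, a postsynaptic adhesion protein, had 26.7 and 23.9 CPM in frozen and FFPE brain, against 63.1 and 88.8 CPM in frozen and FFPE kidney. Bsn, a scaffold of the presynaptic active zone, had 266 and 317 CPM in frozen and FFPE brain, against 658 and 588 CPM in frozen and FFPE kidney. The organs did not overlap, and the log2 differences were -1.33 ± 0.18 for Tubb3, -1.56 ± 0.24 for Nlgn3 and -1.10 ± 0.17 for Bsn (SE, limma adjusted p = 0.000477, 0.000974 and 0.00107). Rbfox3, the splicing factor known as NeuN, fell by 0.92. The postsynaptic scaffolds split: Dlg4, Shank2 and Shank3 fell by 1.03, 0.64 and 0.90, while Shank1 rose by 0.88. The other genes that rose were Nefm, a neurofilament, and Sst, the peptide somatostatin, by 0.99 and 2.91. Without the frozen brain library 5 members were called lower and 0 higher, and without frozen kidney 13 and 0. Both are above the rates of all genes in those fits for lower calls. Rates of genes of like signal were not computed in those fits. With quantile normalization 12 members were called lower and 3 higher, and with total-read scaling 10 and 3.

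**Figure D4:**
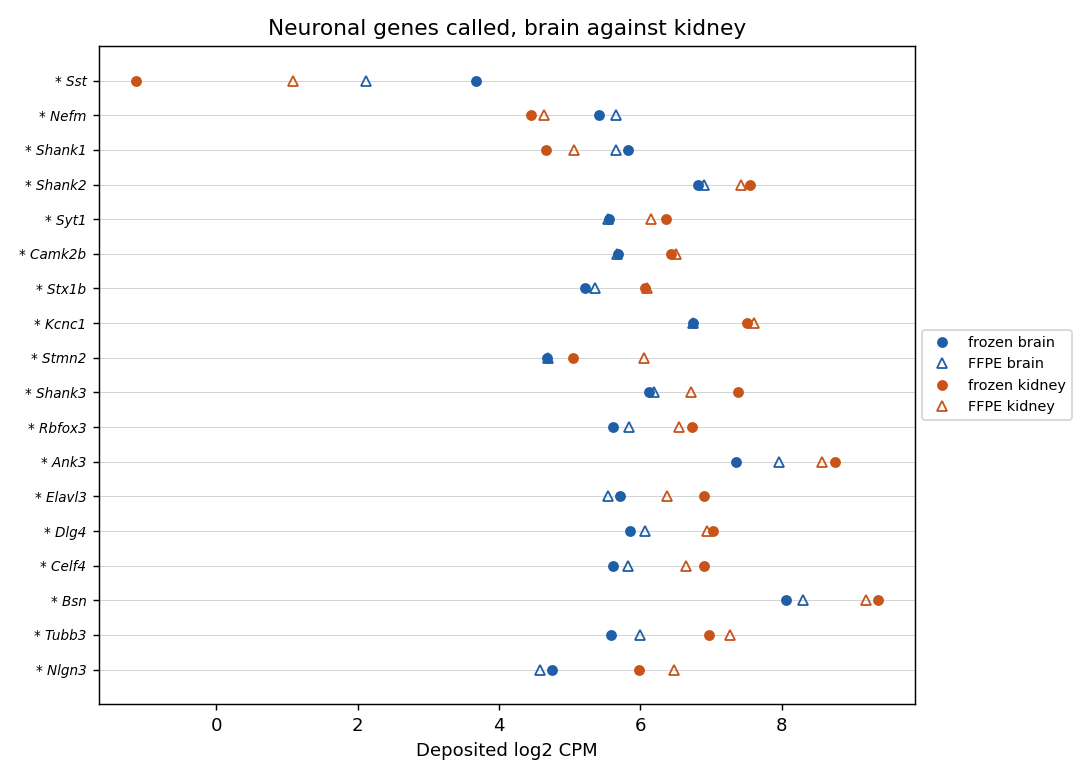
Deposited log2 CPM of 18 of the 19 called neuronal genes, with brain in blue, kidney in orange, frozen libraries as circles and FFPE libraries as triangles. In the 15 rows from Shank2 down both kidney points lie to the right of both brain points, and in the 3 rows above them to the left.

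Glial and microglial genes gave few calls. Of 21 oligodendrocyte genes 1 was called higher (4.76%) and 3 lower (14.3%), which is near the 5.55% and 13.9% of genes of like signal. Of 14 astrocyte genes 1 was called higher and 1 lower (7.14% each), where genes of like signal had 4.98% and 17.4%. Of 14 microglial genes 1 was called higher (7.14%) and 0 lower, where genes of like signal had 6.15% and 10.9%. Mbp, the myelin basic protein, had 77.1 and 127 CPM in frozen and FFPE brain, against 169 and 167 CPM in frozen and FFPE kidney, a log2 difference of -0.76 ± 0.19 (SE, limma adjusted p = 0.0153). Cldn11, the claudin of myelin, had 26.7 and 40.9 CPM in frozen and FFPE brain, against 103 and 69.9 CPM in frozen and FFPE kidney, a difference of -1.36 ± 0.27 (SE, limma adjusted p = 0.0042). Both had brain at the low end without overlap. Mbp was not called without frozen brain, without frozen kidney, or with quantile normalization or total-read scaling. Ermn, an actin-binding protein of oligodendrocytes, went the other way at 1.46 ± 0.39 (SE, limma adjusted p = 0.0203).

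Genes of the kidney tubule were called higher in brain more often than lower. Of 39 proximal tubule genes, 6 were called higher in brain (15.4%) and 0 lower, where genes of like signal had 6.10% and 11.8%, and the median log2 difference was 0.31. Of 40 genes of the distal nephron and collecting duct, 5 were called higher (12.5%) and 2 lower (5.0%), where genes of like signal had 5.67% and 13.9%. Of 14 podocyte genes 1 was called higher and 1 lower (7.14% each), where genes of like signal had 5.43% and 13.8%. The podocyte gene called higher was Nes, already named among the largest rises. Gatm, among the 6 proximal tubule genes called higher, is counted again among the imprinted genes. Brain lay above the other 6 libraries in 4 of the 6 proximal and 4 of the 5 distal genes called higher. Kidney lay below the other 6 in only 1 gene of each list. Without the frozen brain library 0 of the tubule genes of either list were called higher.

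Acsm2, an acyl-CoA synthetase of the tubule, had 80.0 and 63.3 CPM in frozen and FFPE brain, against 31.6 and 21.7 CPM in frozen and FFPE kidney. Slc5a12, a lactate transporter, had 43.4 and 33.7 CPM in frozen and FFPE brain, against 11.2 and 13.2 CPM in frozen and FFPE kidney. Slco1a1, an organic anion transporter, had 35.4 and 19.1 CPM in frozen and FFPE brain, against 2.73 and 3.31 CPM in frozen and FFPE kidney. In each of them both brain libraries were higher, with log2 differences of 1.43 ± 0.25 for Acsm2, 1.63 ± 0.40 for Slc5a12 and 3.03 ± 0.63 for Slco1a1 (SE, limma adjusted p = 0.00219, 0.0142 and 0.00601). Klhl3, a regulator of salt transport in the distal tubule, fell, with 66.7 and 56.1 CPM in frozen and FFPE brain, against 102 and 121 CPM in frozen and FFPE kidney.

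Of 20 leukocyte genes, 4 were called higher in brain and 0 lower, where genes of like signal had 6.72% and 8.72%. Ptprc, the leukocyte antigen CD45, had 71.3 and 84.5 CPM in frozen and FFPE brain, against 21.3 and 22.7 CPM in frozen and FFPE kidney, and Irf4, a factor of lymphocytes, had 75.4 and 57.6 CPM in frozen and FFPE brain, against 17.9 and 17.5 CPM in frozen and FFPE kidney. Heart and liver lay at or below 37.7 CPM for both, so brain was the organ apart. Without frozen brain 1 of the 4 was called. The log2 differences were 1.81 ± 0.27 for Ptprc and 1.89 ± 0.34 for Irf4 (SE, limma adjusted p = 0.000858 and 0.00278). Of 44 collagen genes, 8 were called higher (18.2%) and 1 lower (2.27%), where genes of like signal had 3.95% and 23.1%. Col9a3, of cartilage collagen IX, had 42.5 and 51.7 CPM in frozen and FFPE brain, against 12.1 and 9.92 CPM in frozen and FFPE kidney. The collagen that fell was Col6a2, by 0.67. Collagen genes called higher were 2 without frozen brain, 4 without FFPE brain and 20 with quantile normalization. Of 18 endothelial genes 0 were called in either direction, where genes of like signal had 5.52% higher and 14.9% lower. Of 17 genes of fibroblasts and smooth muscle 2 were called higher (11.8%) and 0 lower, where genes of like signal had 5.17% and 17.8%. Of 13 erythroid genes 2 were called higher (15.4%) and 0 lower, where genes of like signal had 6.7% and 8.43%. Among genes of the organs outside the comparison, 3 of 39 hepatocyte genes were called higher (7.69%) and 0 lower, where genes of like signal had 6.61% and 9.24%. Of 35 cardiomyocyte genes 1 was called higher (2.86%) and 0 lower, where genes of like signal had 5.55% and 14.7%.

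The clustered protocadherins, adhesion molecules that give neurons a surface identity, lie on chromosome 18 and were called in 1 direction. Of 58 tested, 25 were called lower in brain (43.1%) and 0 higher, where genes of like signal had 20.7% and 4.27%, and the median log2 difference was -0.62. The calls were 8 of 14 alpha, 6 of 22 beta and 11 of 22 gamma genes. Pcdhgb1 had 73.4 and 87.5 CPM in frozen and FFPE brain, against 205 and 138 CPM in frozen and FFPE kidney, a difference of -1.07 ± 0.20 (SE, limma adjusted p = 0.00352). The gamma genes share their last exons and overlap on the annotation, so they are not independent. The count over all 58 is therefore not a count of independent genes. The alpha genes were not shown to be independent either. Calls numbered 9 without frozen kidney, 9 with quantile normalization and 0 without frozen brain.

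Zinc finger genes named Zfp, many of them KRAB repressors of transposable elements, were lower at 81 of 363 (22.3%) and higher at 8 (2.20%), where genes of like signal had 15.2% and 5.50%. Zfp219 had 22.1 and 29.3 CPM in frozen and FFPE brain, against 89.9 and 105 CPM in frozen and FFPE kidney, a log2 difference of -1.93 ± 0.20 (SE, limma adjusted p = 0.000129). The Zfp genes called lower were 27 without frozen brain, 50 without FFPE brain, 48 with quantile normalization and 53 with total-read scaling. Of 55 imprinted genes, which are expressed from 1 parental copy, 14 were called lower (25.5%) and 3 higher (5.45%), where genes of like signal had 18.1% and 4.81%. Gnas, a locus of imprinted transcripts for a G protein subunit, had 128 and 177 CPM in frozen and FFPE brain, against 437 and 274 CPM in frozen and FFPE kidney, and differed by -1.20 ± 0.22 (SE, limma adjusted p = 0.00313). Nap1l5, a maternally methylated gene inside an intron of Herc3, fell by 1.22. Kcnq1ot1, the antisense RNA of the Kcnq1 domain, rose by 0.56, and its reads cannot be told from those of Kcnq1. The imprinted count lower was 2 without frozen brain, 6 without frozen kidney and 4 with total-read scaling.

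Of 24 genes of the DNA methylation machinery, 6 were called lower (25%) and 0 higher, where genes of like signal had 17.5% and 4.81%. They were the 3 Tet dioxygenases, which oxidise 5mC, the methyltransferase Dnmt3a, and the methyl-DNA or related proteins Mbd6 and Zbtb38. Tet3 had 115 and 147 CPM in frozen and FFPE brain, against 219 and 248 CPM in frozen and FFPE kidney, a log2 difference of -0.84 ± 0.16 (SE, limma adjusted p = 0.00348). The organs did not overlap at Tet3, and heart and liver lay at 237 to 348 CPM. Without frozen brain 0 of the 24 were called lower, and with quantile normalization 2 were.

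Ion channel and receptor genes had no stable direction. Potassium channel genes were called lower at 22 of 92 (23.9%) and higher at 7 (7.61%), where genes of like signal had 17.5% and 5.01%, but lower at 7 and higher at 12 with quantile normalization. Glutamate and GABA receptor genes were called lower at 9 of 47 (19.1%) and higher at 2 (4.26%), which is near the 17.6% and 5.0% of genes of like signal. With quantile normalization 3 were called lower and 4 higher. Grm4, a metabotropic glutamate receptor, showed the 2 forms of tissue at different levels, with 73.8 and 168 CPM in frozen and FFPE brain, against 164 and 263 CPM in frozen and FFPE kidney. Brain was lower within each form, though FFPE brain overlapped frozen kidney, and the difference was -0.90 ± 0.17 (SE, limma adjusted p = 0.00313). Kcnj11, the pore of the ATP-sensitive potassium channel, had 64.6 and 43.0 CPM in frozen and FFPE brain, against 141 and 123 CPM in frozen and FFPE kidney, a difference of -1.32 ± 0.22 (SE, limma adjusted p = 0.00184).

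**Figure D5:**
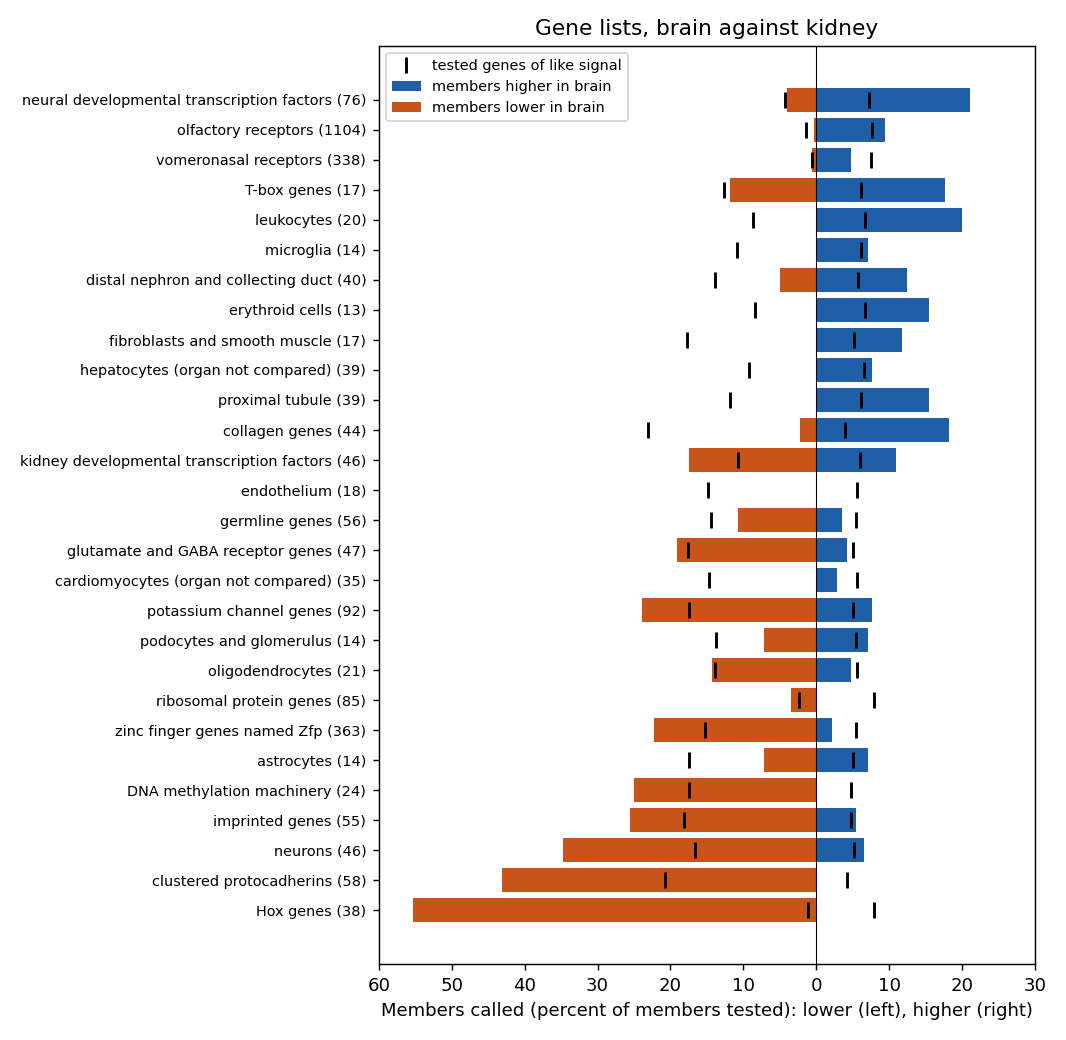
Percent of tested members of each of 28 gene lists called lower (orange, to the left) and higher (blue, to the right) in brain than in kidney, ordered by median difference, with the number tested in brackets. Black ticks give the percent called among genes of like signal. Hox genes reach 55.3% lower against a tick at 1.18%, and neural developmental transcription factors reach 21.1% higher against a tick at 7.29%.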

How the data were processed

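The submitters' processing notes name Bowtie2, featureCounts, limma and the build mm10, without versions. Nothing in the sources used here gives the counted feature, strand or the treatment of multi-mapping reads. The deposited values are log2 CPM with 0.5 read added, and their steps give whole reads for all values (tolerance 1e-04). CPM printed in the text are these reads over the authors' scaled library sizes, without the added 0.5. Columns name neither antibody nor replicate. They were taken as 5mC because the table was deposited for MeDIP-seq, an assumption behind all results. Each may be a single library or a pool. Neither library date nor unselected DNA could be taken into account.

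A gene was kept if 2 or more of the 8 libraries reached 1 CPM (25982 kept, 1197 removed). The deposited log2 values were fitted with limma 3.58.1 in R 4.3.3 as organ plus preservation on all 8 libraries, with a variance trend, 3 residual and 13.1 prior degrees of freedom, and Benjamini-Hochberg adjustment at 0.05 over all tested genes. The fit was run on simulated data whose variance followed a smooth curve on mean signal. Such data cannot test how far the calls depend on the variance trend. Differences are brain minus kidney on the log2 scale. Adding 0.5 read shrinks the difference of genes with few reads. For a gene with no read in a library, the fitted difference rests on the added 0.5 read and can exceed the bound from the floor. Hoxa11 was fitted at -7.64 (200-fold), against at least 33.1-fold with the floor. Floors of 3 reads per library cover counting error only. Genes were placed by Entrez ID on RefSeq GRCm38.p6, which matched 24357 of them (93.7%). Figures and summaries used Python 3.11.15.

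Named genes are the 12 largest differences each way among called genes with at least the median signal, whose organs did not overlap, and, per list (28 in all), the 4 called members of lowest p, or fewer where fewer were called. Further list members, and the 4 promoter windows printed of the 8 the rule reached, were chosen after their values were seen. A few genes that the rules reach are not reported here, and the plots leave them out. The members and lists were chosen with earlier results of these data known, and no list result is independent support. The rate called among genes of like signal is the mean, over a list's members, of the rate in that member's bin of mean log2 CPM (4 equal bins), and its median is the mean of those bins' medians. Alternatives were 3 scalings (quantile, median-centred, total reads), the low-value filter, the pseudocount, weights, the preservation term, the variance trend, brain and kidney alone, and leaving out each library.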

Additional observations from a re-analysis of the deposited data

Results flagged for a closer look

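The medians of 3 gene lists pointed in opposite directions in frozen and FFPE tissue, and the difference between the 2 forms was not tested. Astrocyte genes had a median log2 difference, brain minus kidney, of 0.01 in FFPE tissue, against -0.18 in frozen tissue. Endothelial genes had 0.20 in FFPE tissue, against -0.09 in frozen tissue. Glutamate and GABA receptor genes had 0.03 in FFPE tissue, against -0.14 in frozen tissue. All 6 medians were small beside the spread of the difference over all genes, with an SD of 1.09 in FFPE and 1.64 in frozen tissue.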

How the results depend on the processing

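No paired analysis was possible because the columns carry no replicate numbers. Scaling moved the split of calls: 39.9% of called genes were higher in brain, against 49.7% with quantile normalization, 26.7% with median-centred libraries and 63.1% with total-read scaling. The median difference over all genes was 0.11, and was -0.03 with quantile normalization, -0.03 centred, 0.28 with total-read scaling and 0.02 with a minimum of 5 CPM. Over the libraries left out in turn it lay between 0.02 (without frozen kidney) and 0.11. Genes called higher numbered 1665, and were 1083 with array quality weights and 969 without the preservation term. Genes called lower numbered 2506, and were 1332 with total-read scaling. Without the variance trend limma called 0 genes higher and 0 lower, with 6541 at an unadjusted p under 0.05, against 8485 in the fit as reported. Leaving out 1 library gave 49 (frozen brain) to 3671 (FFPE kidney) genes higher and 434 (frozen brain) to 3255 (FFPE kidney) lower. Without FFPE brain the counts were 428 and 1455, without frozen kidney 993 and 1474 (676 and 1261 of them among those reported), without FFPE heart 950 and 1898, and without frozen heart 931 and 1900. The counts under the other alternatives were within 1.5 times of those reported. Of the 24 largest differences, 23 were still called without FFPE brain, 17 without frozen brain, 0 without the variance trend and 24 under each other alternative. No named gene turned sign under any alternative. With a floor of 3 reads, an empty gene allows 0.876 CPM (frozen liver) to 1.42 CPM (FFPE kidney).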

Other observations

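Chemoreceptor genes stand in large clusters and mostly carry little signal. Of 1104 olfactory receptor genes, 104 were called higher in brain (9.42%) and 4 lower (0.362%), where genes of like signal had 7.68% and 1.43%. Of 338 vomeronasal receptor genes, 16 were called higher (4.73%) and 2 lower (0.592%), where genes of like signal had 7.55% and 0.548%. Olfr786 had 8.34 and 8.66 CPM in frozen and FFPE brain, against 0 reads in both kidney libraries, at least 7.48-fold higher against a floor of 3 reads per library. Olfr606 went the other way, with 35.0 and 30.8 CPM in frozen and FFPE brain, against 127 and 73.2 CPM in frozen and FFPE kidney. These genes have near-identical copies, so reads may be split between them. Without the frozen kidney library 51 olfactory receptor genes were called higher, and 0 without frozen brain.

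Genes of long non-coding RNAs were called higher in brain at 255 of 2031 (12.6%) and lower at 44 (2.17%), against 5.96% and 11.2% of 20731 protein-coding genes. Their median mean log2 CPM was 3.00, against 4.60 for protein-coding genes. Genes called lower made up 19.6% of tested genes on chromosome 18 and 15.9% on chromosome 8, and 4.58% on the X chromosome, while genes called higher ranged from 3.85% on X to 8.89% on chromosome 1 among chromosomes other than Y. The median mean log2 CPM was 5.17 on chromosome 18, 4.76 on chromosome 8 and 2.86 on X. The chromosome rates were not set beside those of genes of like signal. The clustered protocadherins called lower also count on chromosome 18. Of 101 tested genes on Y, 0 were called. Of 56 germline genes 2 were called higher (3.57%) and 6 lower (10.7%), where genes of like signal had 5.39% and 14.4%. Of 85 ribosomal protein genes, whose reads can be shared with processed copies, 0 were called higher and 3 lower (3.53%), where genes of like signal had 7.93% and 2.36%.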
